A study of Homo sapiens with 4 samples.

Results

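The genes described are 43 of 44 named genes of mitotic entry, the spindle assembly checkpoint, the kinetochore, the spindle and cytokinesis, out of 18132 genes measured. They were chosen by symbol, and each is represented by the probe set with the highest mean over all 4 arrays among those assigned to that gene alone. PTTG1, the securin gene, had no such probe set and was not analysed here. The kinesin motors were left out, except CENPE, a kinesin of the kinetochore. The list was drawn up when earlier results of the same comparison were known, so the counts and medians over the list are descriptions and carry no test.

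The arrays came from U87MG, an established human glioma cell line. The cells had received either PC-490, a vector for overexpression of miR-490, or the control vector, written both PCDNA and PCDNA3.1 (+) in the labels, and were harvested after 48 h. A microRNA such as miR-490 pairs with messenger RNAs and represses them. Each group has 2 PrimeView arrays, hybridised from 100 ng of total RNA. Both groups carried a plasmid, so neither shows untransfected cells. How many cells took up the plasmid is not stated in the labels, which name no separate cultures behind the replicates, and p-values then measure only the spread between these arrays, which may be technical. In RNA from whole cultures, more cells in mitosis and more transcript per mitotic cell cannot be told apart.

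As background, cells enter mitosis when cyclin B binds the kinase CDK1 and the phosphatase CDC25C removes its inhibitory phosphates. The spindle assembly checkpoint holds the anaphase-promoting complex, a ubiquitin ligase, inactive until every kinetochore is attached to the spindle. CDC20 and later FZR1 then direct the complex to securin and the cyclins, the chromosomes separate and the cell divides. Most of these genes are transcribed late in the cell cycle, repressed by the DREAM complex in resting cells and activated by B-MYB and FOXM1, and their transcripts are widely read as a measure of proliferation in gliomas.

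The mature forms of miR-490 are shown as reference sequences, and neither was analysed in these cells here. They are given from RefSeq (GRCh38.p14, plus strand, chr7:136903205-136903224 for the 5p form and chr7:136903242-136903263 for the 3p form), with the seed, bases 2 to 8, in capitals. The seeds differ, so the forms would pair with different sites.
hsa-miR-490-5p: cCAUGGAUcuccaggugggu
hsa-miR-490-3p: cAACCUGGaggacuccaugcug

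Promoters of the members shared letters that the choice of genes did not use. A promoter, taken from RefSeq as 250 bases before to 50 bases after the start of the gene, was matched for 35 of the 43 genes. The cell cycle genes homology region, the element through which DREAM binds, was searched as TTTGAA on either strand (TTCAAA on the other). It was present in 26 of the 35 promoters, or 74.3%, against 12.2% of the 14425 promoters of all measured genes. The CCAAT box bound by NF-Y, searched as CCAAT or ATTGG, was present in 25 of them, or 71.4%, against 36.5%. Both motifs were present in 20, or 57.1%, against 5.12%. Among DNA replication genes, which are transcribed earlier in the cycle, 1 of 40 promoters held TTTGAA or TTCAAA and 21 held the CCAAT letters. A match is a description of letters and not evidence of binding.

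The 6 members with the smallest p among those with a TTTGAA or TTCAAA match are shown, from 30 bases before the first motif to 30 after the last within the window. They are written 5′ to 3′ on the strand of the gene, with both motifs in capitals (GRCh38.p14). SPAG5 lies on the minus strand, chr17:28598987-28599052, FZR1 on the plus strand, chr19:3506061-3506120, and DEPDC1 on the minus strand, chr1:68497074-68497164. The other three lie on minus strands, ASPM at chr1:197146660-197146833, CDCA3 at chr12:6851254-6851353 and MKI67 at chr10:128126413-128126551.
SPAG5: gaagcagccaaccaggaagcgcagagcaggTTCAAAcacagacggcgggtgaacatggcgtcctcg
FZR1: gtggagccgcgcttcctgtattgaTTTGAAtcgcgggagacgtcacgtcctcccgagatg
DEPDC1: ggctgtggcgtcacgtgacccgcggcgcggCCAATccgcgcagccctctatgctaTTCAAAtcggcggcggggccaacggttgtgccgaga
ASPM: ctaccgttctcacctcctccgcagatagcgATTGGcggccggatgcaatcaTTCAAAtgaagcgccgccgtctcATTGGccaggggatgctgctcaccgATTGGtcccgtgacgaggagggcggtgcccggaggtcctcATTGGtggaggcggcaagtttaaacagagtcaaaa
CDCA3: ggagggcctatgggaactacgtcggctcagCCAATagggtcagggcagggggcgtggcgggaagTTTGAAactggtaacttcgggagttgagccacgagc
MKI67: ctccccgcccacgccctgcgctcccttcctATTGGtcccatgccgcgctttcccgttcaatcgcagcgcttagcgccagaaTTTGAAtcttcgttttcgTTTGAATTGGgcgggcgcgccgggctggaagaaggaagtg

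Counted from the start of the gene, the TTTGAA or TTCAAA match began at position 4 in SPAG5, -27 in DEPDC1, -113 in ASPM and -3 in CDCA3, and at -47 and -29 in MKI67. In FZR1 it began at -226, and no CCAAT letters were found in its window or in that of SPAG5. In MKI67 the motif at -29 overlaps the ATTGG at -24. Between the groups compared next, the median log2 fold change was 0.128 over the 26 members with TTTGAA or TTCAAA and 0.11 over the 9 without. The gap was not tested.

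Setting the arrays with PC-490 beside those with the control vector asks how overexpressed miR-490 alters the transcripts of the cell. Nearly all the mitotic genes had slightly higher means with miR-490, and none passed the test. Of the 43 genes, 37 had a higher mean and 6 a lower one, where 50.1% of all genes had a higher mean. The median log2 fold change was 0.105, a fold of 1.07, against 0.005 over all genes, and the values ranged from -0.075 for ECT2 to 0.305 for FZR1. In the limma fit, adjusted by Benjamini-Hochberg across the 18132 genes, 0 members had an adjusted p under 0.05, as did 0.0% of all genes in either direction. Adjusted p values of the members lay between 0.786 and 0.991. At an unadjusted p under 0.05 there were 8 members higher and 0 lower, against 3.3% and 2.88% of all genes, and an ordinary linear model per gene gave 7 and 0, against 2.7% and 3.02%. The 8 members became 2 when the probe sets of a gene were averaged (limma), against 2.85% of all genes. Their number also fell without control replicate 2 and without miR-490 replicate 1. Those fits leave 1 array in a group, and the shares of all genes differed there too. The standard error of a member's log2 fold change was 0.0532 to 0.116, with a median of 0.0709. With 2 arrays against 2, the smallest two-sided exact permutation p for 1 gene is 0.333.

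The groups did not overlap in 24 members. Both miR-490 arrays were above both control arrays in 22 members, 51.2% of them, against 16.5% of all genes, and below both in 2, BUB1 and BUB3, against 16.1%. The control arrays held the lowest value of most genes: control replicate 2 was lowest in 21 members and control replicate 1 in 16, against 17.3% and 32.1% of all genes. Highest values lay in miR-490 replicate 1 for 23 members and in miR-490 replicate 2 for 12, against 23.4% and 22.4% of all genes. The median deviation of the members from their own 4-array means was -0.0275 and -0.065 in control replicates 1 and 2 and 0.0575 and 0.0425 in miR-490 replicates 1 and 2. Across all genes the same medians were -0.015, 0.0125, 0.0025 and 0. Control replicate 2 thus lay lowest for the mitotic genes and highest of the 4 for genes at large. Without it the members' median was 0.08 and 32 of 43 had a higher mean. Genes at large also moved up then: groups were apart and higher in 38.9% of all genes and lower in 28.9%.

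**Figure D1:**
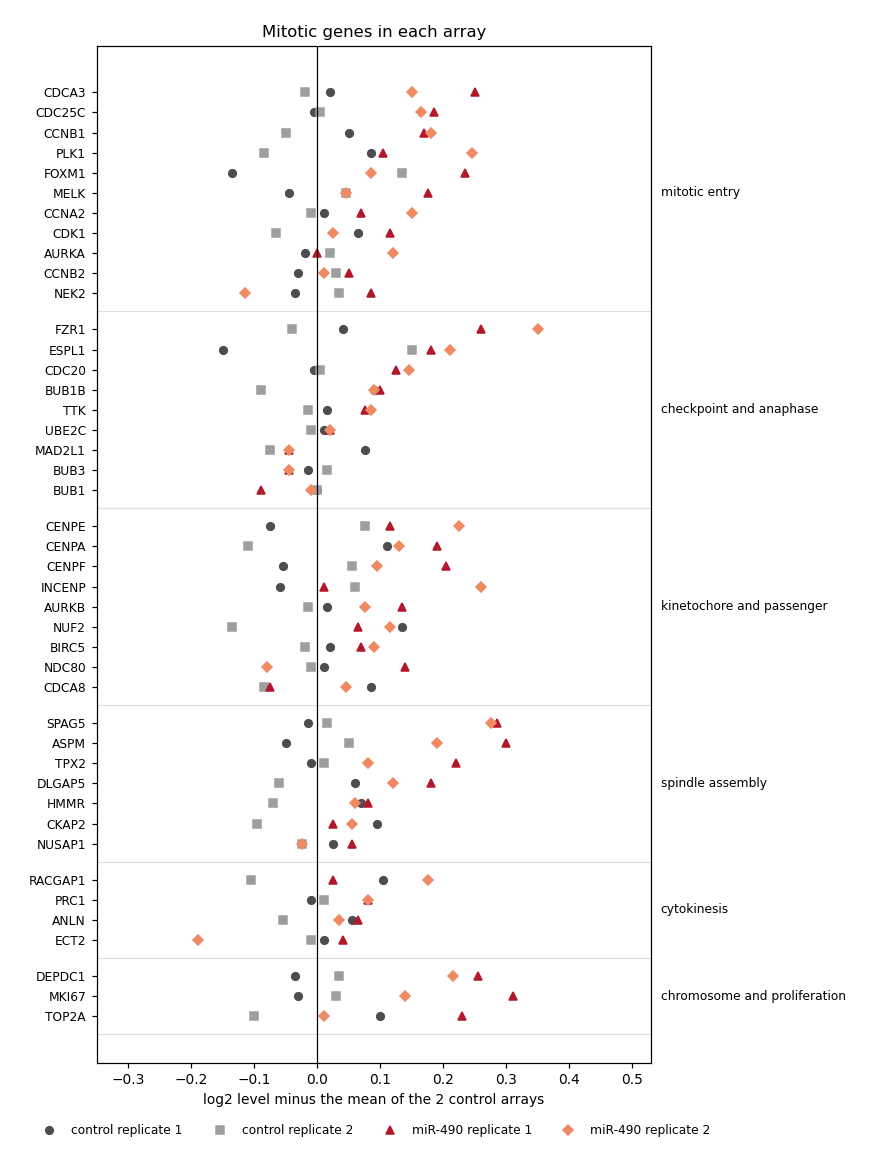
Log2 level of each of the 43 genes in each array, minus the mean of its 2 control arrays (x axis), with genes in rows by sub-function and points for single arrays. In 22 genes both miR-490 points lie to the right of both control points, and the largest difference between group means is that of FZR1, 0.305.

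Genes of mitotic entry had higher means in 10 of 11 cases, and the median log2 fold change was 0.11, or 0.0667 when the probe sets of a gene were averaged. CCNB1, the cyclin that activates CDK1 for mitosis, was at 8.35 and 8.25 in control replicates 1 and 2 and at 8.47 and 8.48 in miR-490 replicates 1 and 2 (log2 level, as are all array values that follow, in the same order). Both miR-490 arrays were above both controls, with a log2 fold change of 0.175 ± 0.0626 (SE). CDC25C, the phosphatase that switches CDK1 on, was at 5.02 and 5.03 in controls and at 5.21 and 5.19 with miR-490, close pairs that did not overlap (0.175 ± 0.0533). CDCA3, an adaptor for the degradation of the mitotic inhibitor WEE1, was at 5.75 and 5.71 against 5.98 and 5.88, again without overlap (0.20 ± 0.0639). These 3 are the members of the group at an unadjusted p under 0.05 (limma, adjusted p = 0.786 each). CDC25C and CDCA3 were not above the median gene, and the groups overlapped in the other probe set of each (0.075 and 0.125). PLK1, a kinase of mitotic entry and of many later steps, was at 6.37 and 6.20 in controls and 6.39 and 6.53 with miR-490. Its groups were barely apart, since miR-490 replicate 1 exceeded control replicate 1 by 0.02.

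CDK1 itself, the kinase that drives entry, was at 8.28 and 8.15 in controls and at 8.33 and 8.24 with miR-490. The groups overlapped, and they differed by 0.07 (95% interval -0.13 to 0.27). FOXM1, the transcription factor that activates many of these genes, was at 6.30 and 6.57 against 6.67 and 6.52. Its control arrays spread more widely than the groups differed (0.16 ± 0.116). CCNA2, the cyclin of S phase and early mitosis, had 0.11 without overlap. MELK, a kinase of proliferating progenitor cells, had 0.11, AURKA, the centrosomal Aurora kinase, 0.06, CCNB2, a second B-type cyclin, 0.03 and NEK2, a kinase of centrosome separation, -0.015, all with overlap.

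Checkpoint and anaphase genes were the least uniform of the larger groups, with 6 of 9 higher means and a median of 0.08. That median was 0.045 without control replicate 1 and 0.01 without control replicate 2. FZR1, which activates the anaphase-promoting complex at mitotic exit and in G1, was at 6.16 and 6.08 in controls and at 6.38 and 6.47 with miR-490. The gap between the groups was wider than either pair, and the means differed by 0.305 (95% interval 0.13 to 0.48), a fold of 1.24, without passing (limma, adjusted p = 0.786). CDC20, its counterpart at anaphase, was at 8.30 and 8.31 in controls and 8.43 and 8.45 with miR-490, pairs that each agreed closely and lay 0.135 apart. ESPL1, the separase that cuts cohesin, was at 5.72 and 6.02 against 6.05 and 6.08. Here the low value of control replicate 1 sets the difference of 0.195, since the other control array was near the miR-490 pair.

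The checkpoint kinases and sensors differed less. TTK, the kinase at the head of the checkpoint, was at 5.62 and 5.59 in controls and at 5.68 and 5.69 with miR-490, without overlap (0.08 ± 0.0538). BUB1B, a part of the inhibitor of CDC20, was at 6.91 and 6.73 against 6.92 and 6.91, so that 3 of the 4 arrays were alike and control replicate 2 was low. MAD2L1, which with it blocks CDC20, was at 8.54 and 8.39 against 8.42 in both miR-490 arrays, which lay between the controls. BUB1, a checkpoint kinase, was at 6.69 in both control arrays and at 6.60 and 6.68 with miR-490 (-0.05 ± 0.0592), and BUB3, its partner, at 9.97 and 10.00 against 9.94 in both (-0.045 ± 0.0537). These are the only members whose groups were apart with miR-490 lower, by less than 1 SE. UBE2C, the ubiquitin-conjugating enzyme of the complex, was at 10.39 and 10.37 against 10.40 in both and had a log2 fold change of 0.02. The counts of groups without overlap include gaps as narrow as 10.39 to 10.40 here and 6.68 to 6.69 in BUB1.

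Among genes of the kinetochore and the chromosomal passenger complex, 8 of 9 had higher means, the median was 0.105 and none was at an unadjusted p under 0.05. Without control replicate 2 the median was 0.06. CENPE, the kinesin that moves chromosomes to the spindle equator, was at 7.24 and 7.39 in controls and at 7.43 and 7.54 with miR-490 (0.17 ± 0.0816). CENPF, a large protein of the outer kinetochore, was at 7.15 and 7.26 against 7.41 and 7.30 (0.15 ± 0.0741). CENPA, the histone variant that marks centromeres, was at 7.38 and 7.16 against 7.46 and 7.40 (0.16 ± 0.0928). In each of these the groups did not overlap, but the gap between their nearest arrays was narrower than the gap between the control arrays.

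AURKB, the kinase of the passenger complex that corrects wrong attachments, was at 6.65 and 6.62 in controls and at 6.77 and 6.71 with miR-490, without overlap (0.105 ± 0.0573). BIRC5, survivin, had a log2 fold change of 0.08 without overlap, while the other parts of the complex had 0.135 (INCENP, its scaffold) and -0.015 (CDCA8, borealin), with overlap. NDC80 and NUF2, which bind microtubules together, had 0.03 and 0.09, also with overlap. The genes of the passenger complex thus spanned -0.015 to 0.135.

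Spindle assembly genes had higher means in all 7 cases, and their median was 0.15. It was 0.08 without miR-490 replicate 1 and 0.09 without control replicate 2. SPAG5, which stabilises attachments at the kinetochore and spindle poles, was at 7.03 and 7.06 in controls and at 7.33 and 7.32 with miR-490. Each pair agreed within 0.03 and the groups differed by 0.28 (95% interval 0.14 to 0.42), and the unadjusted p of 0.00481 was the smallest of the 43 genes (limma, adjusted p = 0.786). ASPM, a protein of the spindle poles that is mutated in microcephaly, was at 7.94 and 8.04 against 8.29 and 8.18, without overlap (0.245 ± 0.0725). DLGAP5, which bundles microtubules near chromosomes, was at 7.05 and 6.93 against 7.17 and 7.11, and TPX2, the activator of AURKA on the spindle, at 8.47 and 8.49 against 8.70 and 8.56. In both the gap between the nearest arrays of the groups was narrower than the spread within 1 of the groups. HMMR, a microtubule-binding receptor of hyaluronan, had 0.07, CKAP2, a microtubule stabiliser, 0.04 and NUSAP1, a protein of the central spindle, 0.015, all with overlap.

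Cytokinesis genes had 3 of 4 higher means and a median of 0.065, which was 0.0875 without control replicate 1 and -0.005 without control replicate 2. PRC1, which bundles the microtubules of the midzone, was at 8.39 and 8.41 in controls and at 8.48 in both miR-490 arrays and was the only one of the 4 without overlap (0.08 ± 0.0532). RACGAP1, a part of centralspindlin, had 0.10, ANLN, the scaffold of the contractile ring, 0.05 and ECT2, the activator of RhoA at the cleavage site, -0.075. The low mean of ECT2 came from miR-490 replicate 2 at 6.67, while the other 3 arrays lay between 6.85 and 6.90.

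The remaining 3 genes had a median of 0.225, which was 0.14 without miR-490 replicate 1 and 0.11 when the probe sets of a gene were averaged. MKI67, which coats mitotic chromosomes and encodes the Ki-67 proliferation antigen, was at 7.39 and 7.45 in controls and at 7.73 and 7.56 with miR-490 (0.225 ± 0.0802). DEPDC1 was at 7.96 and 8.03 against 8.25 and 8.21 (0.235 ± 0.0593). In both the groups did not overlap, and both had an unadjusted p under 0.05 (limma, adjusted p = 0.786 each). TOP2A, the topoisomerase that untangles sister chromatids, was at 9.19 and 8.99 against 9.32 and 9.10. In each group replicate 1 was higher than replicate 2 by about 0.2, and the difference between groups was smaller than that (0.12 ± 0.113).

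**Figure D2:**
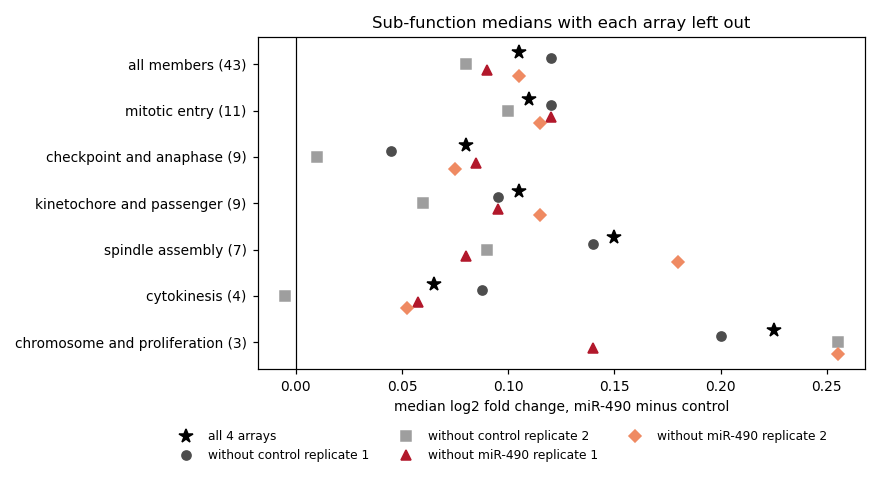
Median log2 fold change (x axis) over all 43 genes and over each sub-function, with the number of genes in brackets. The star uses all 4 arrays and the other symbols leave 1 array out, and only the cytokinesis median crosses 0, at -0.005 without control replicate 2.

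Other probe sets of the same genes on the same arrays gave a further view. They are not replicates, and whether sets of a gene share probes was not assessed. There were 75 of them in 31 genes, and 12 genes had 1 probe set only. Of the 75, 58 had higher means with miR-490, 15 lower and 2 equal, where 49.6% of all 44988 single-gene probe sets had a higher mean, and the median difference was 0.075 on the log2 scale. The 39 sets above the median gene had 31 higher means and a median of 0.08, and the 36 dimmer sets had 27 and 0.06. In 16 of the 31 genes every other set had the sign of the set used. In the fit over all single-gene probe sets 0 of the 75 passed, and 5 were higher and 1 lower at an unadjusted p under 0.05, against 2.7% and 2.5% of all single-gene probe sets (limma, smallest adjusted p of any set of the members 0.898). For NEK2, UBE2C, DLGAP5 and ANLN the set used is of the x type, whose probes may also match other transcripts, so these 4 values are less certain. Matches to other transcripts were not assessed for sets of other types.

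All 11 other sets of BIRC5, some dim or of the x type, were higher with miR-490, by 0.03 to 0.18, with groups apart in 6. Those of HMMR, at 0.055 to 0.18, and of PLK1, at 0.24 and 0.29, were mostly larger than the value of the set used, and 4 of 5 of MKI67 lay between 0.21 and 0.29 with the other at -0.135. SPAG5, ASPM and DEPDC1 had smaller values in their next sets, 0.095, 0.09 and 0.125, and the third set of DEPDC1 gave -0.08. FZR1 was divided, at 0.245, with miR-490 replicate 2 at 5.90 and the other arrays at 5.38 to 5.43, and at -0.035. The sets of CCNA2 were opposed with groups apart in both, 0.11 in the set used and -0.13 in the other, and the 6 other sets of NEK2 ran from -0.305 to 0.305. CENPA had -0.05, 0 and 0.02 in its other sets, so its value of 0.16 rests on 1 probe set.

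**Figure D3:**
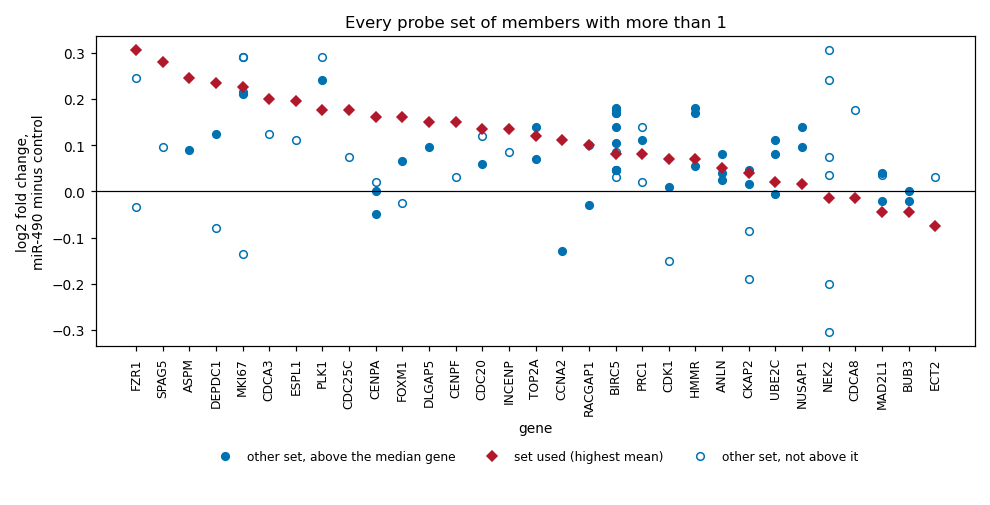
Log2 fold change (y axis, miR-490 minus control) of every probe set of the 31 genes with more than 1, with diamonds for the set used, filled circles for other sets above the median gene and open circles for dimmer sets. Most circles lie above 0, and those of NEK2 spread on both sides, from -0.305 to 0.305.

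Genes of the same machinery outside the 43 were taken from lists also drawn up with earlier results of these data known. Of their 186 genes, 0 had an adjusted p under 0.05 (limma). At an unadjusted p under 0.05 there were 3 higher and 2 lower, and 1 and 6 in the ordinary linear model, where the shares of all genes were 3.3% and 2.88%, and 2.7% and 3.02%. Mitotic kinesins, the motors of the spindle, had 10 of 12 higher means and a median of 0.0875 (0.05 without control replicate 1), and in 6 the groups were apart with miR-490 higher and in 0 lower, against 16.5% and 16.1% of all genes. KIF4A, a motor on chromosome arms, was at 6.36 and 6.47 in controls and at 6.67 and 6.58 with miR-490, and KIF23, of centralspindlin, at 5.85 and 5.80 against 5.93 and 5.96. Other spindle and cytokinesis genes were higher in 16 of 22 cases, their median being 0.0575 (0.0275 without miR-490 replicate 1). In 7 the groups were apart and higher and in 3 lower, or 31.8% and 13.6% of the list. It includes CIT, the citron kinase of the midbody, at 0.17 and HAUS1, of the augmin complex, at -0.14. Other regulators of entry and exit were higher in 9 of 16 cases, their median being 0.05, which was 0.0025 without control replicate 1 and -0.02 without miR-490 replicate 1. In 4 the groups were apart and higher and in 3 lower, or 25.0% and 18.8%, against 16.5% and 16.1% of all genes. The list includes PLK4, the kinase of centriole duplication, at 0.24 and CDC25A, a phosphatase of S phase entry, at -0.28, each at an unadjusted p under 0.05 (limma). Other kinetochore and checkpoint genes were higher in 21 of 37 cases, their median being 0.01 (-0.015 without miR-490 replicate 1). In 9 the groups were apart and higher and in 3 lower, or 24.3% and 8.11% of the list, against the same shares of all genes. It includes SKA3, of the SKA complex, at 0.20 and CENPM at 0.135.

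Subunits and partners of the anaphase-promoting complex were higher in 10 of 16 cases, with a median of 0.0125, but in 2 and -0.04 without control replicate 1 and in 5 and -0.0125 without miR-490 replicate 1. None was apart and higher and 3 were apart and lower, or 18.8%, against 16.5% and 16.1% of all genes. FBXO5, its inhibitor in S phase and G2, differed by -0.15 on the log2 scale and UBE2S, its chain-extending enzyme, by 0.14, the latter with overlap. Condensin and cohesin genes were higher in 11 of 18 cases, their median being 0.035 (-0.0175 without miR-490 replicate 1), with 3 apart and higher and 1 lower, and with NCAPG at 0.085 and NIPBL, the cohesin loader, at 0.13. The transcription factors over this programme were higher in 9, lower in 8 and equal in 3 of 20 cases, with 2 apart and higher and 4 lower, and with RBL1, a repressor related to RB, at -0.195 and E2F5 at -0.115. DNA replication genes were higher in 12 and lower in 30 of 45 cases, their median being -0.04 (-0.01 without control replicate 1, when 21 were higher), with 7 apart and higher and 10 lower. ORC1, of the origin recognition complex, was at 5.17 and 5.20 in controls and at 4.88 and 4.98 with miR-490, and POLE, a replicative polymerase, at 7.16 and 7.29 against 7.43 in both. Groups apart and higher or lower made up 16.7% and 5.56% of condensin and cohesin genes and 10.0% and 20.0% of the transcription factors. For replication genes the shares were 15.6% and 22.2%, against the same 16.5% and 16.1% of all genes. The difference between these lists and the 43 genes was not tested.

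**Figure D4:**
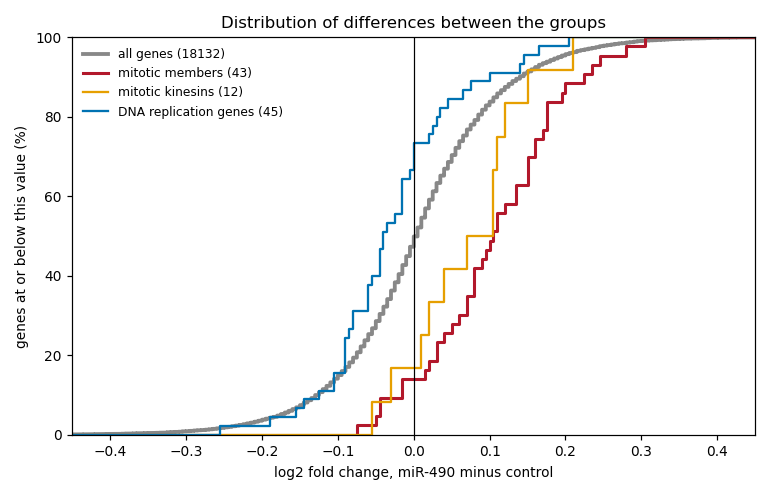
Share of genes (y axis, in percent) with a log2 fold change at or below the value on the x axis, for all 18132 genes, the 43 mitotic genes, 12 mitotic kinesins and 45 DNA replication genes. The mitotic curve crosses its median at 0.105 and the replication curve at -0.04, on either side of the curve for all genes at 0.005.

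On the arrays as a whole, medians lay between 5.15 and 5.17, and r across genes was 0.998 for pairs within and between groups. The line's labelled type was checked against markers. Of the 6 mesenchymal and glioma line markers, VIM, FN1, CD44, TNC and CHI3L1 lay between 10.99 and 13.92, but NES, nestin, was at or below 4.30 in every array, under the array medians. Of the 6 glial markers, SLC1A3, at 6.63 to 6.79, and GFAP, at 5.56 to 5.81, were above the array medians. GFAP was not above the median gene. SOX2, at 4.77 to 5.05, OLIG2, at 3.59 to 3.75, S100B, at 3.26 to 3.55, and AQP4, at 2.64 to 2.78, were below them. Leukocyte markers (PTPRC, CD3E, CD14 and AIF1) lay between 2.43 and 4.47. The log2 of their summed linear level was 5.45 and 5.68 in controls and 5.38 and 5.40 with miR-490. All 4 had lower means with miR-490, opposite to the mitotic genes, and 0 of them lay above the median gene. Lower means were also found for 5 of 6 glial, 3 of 4 epithelial and 2 of 3 endothelial markers. KRT8, an epithelial marker, and PECAM1, an endothelial one, were higher without overlap, at 0.16 and 0.18. CD3E, PTPRC and the glial SLC1A3 were lower without overlap, at -0.29, -0.16 and -0.09. Of all the markers, only CD3E and PTPRC had an unadjusted p under 0.05 (limma, adjusted p = 0.786 each). The change of CD3E, a dim gene, was close in size to that of FZR1, 0.305, the largest of the mitotic genes. What the changes of the dim markers reflect was not tested. The microRNA was not analysed here, so its overexpression has no check in these arrays.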

How the data were processed

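Total RNA of 4 U87MG samples was labelled with biotin and hybridised to PrimeView arrays, per the labels' protocols. Each deposited value is the log2 level of a probe set. The authors obtained it by RMA, as the submitters' processing notes name it, and which software and settings they used is not given in the sources used here. RMA makes the arrays alike, so a shift of most transcripts cannot be seen, and it compresses dim signals.

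Of 49293 probe sets, 44988 have 1 gene symbol, and 44961 of these were matched to RefSeq by Entrez ID. For each of 18132 genes the set with the highest mean was fitted in R 4.3.3 with limma 3.58.1 (lmFit, eBayes, no trend, no block), with two-sided p-values adjusted by Benjamini-Hochberg and read at 0.05. The fit was tested on simulated data. No filter on dim genes was applied; 38 of the 43 genes lay above the median gene. Groups and replicate numbers came from the titles. The number of arrays limits the precision. Members and lists were chosen with earlier results of these data known. Array values are given for up to 4 genes per sub-function without overlap and with the smallest p, and for 11 genes fixed by name; the lists outside the 43 genes name the 2 genes with the smallest p. The alternatives tried were quantile normalisation, median centring of the arrays, a trend of variance on intensity (also with a robust prior), only genes above the median, averaging the probe sets of a gene, no moderation, each array left out and the replicate number as a block. Figures used matplotlib 3.10.9.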

Additional observations from a re-analysis of the deposited data

How the results depend on the processing

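The count of the 43 genes past the adjusted threshold was 0 in all 12 alternatives (smallest adjusted p 0.60). Leaving out 1 array, where the single array left in a group is taken to vary as the pair does, gave a median log2 fold change of 0.08 to 0.12 and 32 to 38 genes with higher means; 25 to 34 genes were above the other group without overlap, 2 to 6 below it, and 2 to 7 were higher at an unadjusted p under 0.05. With fewer arrays there are fewer chances to overlap, and the shares of all genes without overlap were 28.0% to 38.9% higher and 28.9% to 35.8% lower. Without overlap and lower there were 0 genes on quantile-normalised values, against 16.5% of all genes. Averaging the probe sets of a gene left 2 genes higher at an unadjusted p under 0.05 (limma), against 2.85% of all genes. The cause was not tested. Of 511 alternatives of single genes, 19 in 12 genes changed sign, 13 of them with 1 array left out, and 0 of these genes passed the adjusted threshold. Same-numbered arrays showed no shared deviation (r = -0.0265 across genes). With the replicate block 0 genes passed and 6 were higher at an unadjusted p under 0.05 (limma), against 2.66% of all genes. Dim genes are compressed near the floor, and detection calls were not used here.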
